A study of Mus musculus with 3 samples.

Results

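The 10 genes described here form the glucocorticoid and FOXO axis of the heart: the steroid receptors Nr3c1 and Nr3c2, the glucocorticoid-induced genes Fkbp5, Zbtb16, Tsc22d3 and Klf9, the transcription factors Foxo1 and Foxo3, and the muscle ubiquitin ligases Fbxo32 and Trim63. They were taken by name from the 21646 protein-coding genes annotated on the autosomes and X, and all 10 were found. For each gene, unique Tn5 fragments were counted over the gene body plus 2 kb upstream, and separately within 1 kb of its annotated transcription start sites. A fragment marks open chromatin, not RNA, so no value below is an expression level.

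Glucocorticoids enter the cell and bind the glucocorticoid receptor, which leaves its chaperones, moves to the nucleus and binds palindromic response elements near its target genes. FOXO factors are held in the cytoplasm when AKT phosphorylates them downstream of insulin and growth factor receptors, and they act in the nucleus when that signal is low. Both pathways meet at the muscle ubiquitin ligase genes that drive protein breakdown in muscle wasting, and sunitinib blocks several receptor tyrosine kinases that feed the AKT signal.

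The libraries were single-nucleus multiome preparations (RNA and ATAC from the same nuclei) of snap-frozen hearts from wild-type mice. A first library came from mice given sunitinib together with Yoda1, a small molecule that opens the mechanically gated channel PIEZO1, another from mice given sunitinib alone, and the last from mice given vehicle. The titles name the drug class in place of sunitinib and Yoda1 alone in place of the combination, and the design text supplied the full treatments. The titles also carry 3 months, without saying whether that is an age or a treatment time, and the labels do not give the dose, the sex or how many animals went into a library. With 1 library per group there is no replicate and no test. Every 95% interval covers counting error only, and the variation between animals is not in it.

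The sunitinib library held 23653823 unique fragments and 3831 called nuclei, and the vehicle library 18704581 fragments and 2676 nuclei. The sunitinib plus Yoda1 library held 583792 fragments from as many as 209296546 read pairs and only 12 called nuclei, so it was compared as a whole library and never by cell class. In that library 42.1% of fragments shared start and end with a fragment of another barcode. The 258020 fragments backed by at least 100 read pairs did so in 0.288% of cases and were the ones used. Random draws of 581823 fragments, as many as that library held on the autosomes and X before this filter, gave 0.203% in the sunitinib and 0.191% in the vehicle library. A smaller draw shares fewer positions, and none was made at 258020 fragments, so the 0.288% has no control of its own size. Called nuclei fell into 9 named classes and 1 unnamed remainder, and 22 barcodes were called in both the sunitinib and the vehicle library. T lymphocyte-like nuclei made up 34.7% of the sunitinib nuclei and 8.82% of the vehicle nuclei. Cardiomyocyte-like nuclei numbered 370 under sunitinib and 268 under vehicle, and all 10 of 10 cardiomyocyte markers were at least 2-fold more accessible in them than in the other nuclei.

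The promoter of Trim63, which encodes the muscle RING-finger ligase MuRF1, carried both kinds of element in one short stretch. It and the promoter of Klf9 are shown because they were the ones among the members' promoters searched that held either motif. The bases are the 250 upstream of the start site from RefSeq (GRCm38.p6), 5′ to 3′ on the gene's strand, with motif matches in capitals. Trim63 lies at chr4:134314870-134315119 on the plus strand and Klf9 at chr19:23140976-23141225 on the plus strand.
Trim63: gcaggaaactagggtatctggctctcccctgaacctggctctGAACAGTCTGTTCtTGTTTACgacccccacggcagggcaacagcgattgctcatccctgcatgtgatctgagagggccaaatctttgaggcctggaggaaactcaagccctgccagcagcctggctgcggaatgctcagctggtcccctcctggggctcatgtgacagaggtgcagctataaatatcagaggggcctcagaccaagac
Klf9: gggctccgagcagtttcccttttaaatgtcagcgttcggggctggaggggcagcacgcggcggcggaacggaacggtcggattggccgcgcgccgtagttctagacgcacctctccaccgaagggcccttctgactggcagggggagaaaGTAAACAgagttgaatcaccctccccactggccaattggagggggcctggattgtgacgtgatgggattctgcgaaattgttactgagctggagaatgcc
The receptor motif searched was GNACA followed by 3 free bases and TGTNC, which glucocorticoid and mineralocorticoid receptors share, and the FOXO motif was GTAAACA, each on both strands. In Trim63 the receptor motif began 208 bases before the start site and the FOXO motif began 194 bases before it, with 1 base between them. In Klf9 the FOXO motif began 100 bases before the start site. Of 32585 promoters of this length in the RefSeq table, 127 (0.390%) held the receptor motif and 1037 (3.18%) held the FOXO motif. The promoters of Fkbp5, Foxo1, Foxo3 and Nr3c2 and 3 promoters of Tsc22d3 held neither, which says only that those letters are not in these windows. No promoter of Nr3c1, Zbtb16 or Fbxo32 was searched, so nothing is known here of motifs in them.

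Across cell classes, each member had its own pattern of openness. The levels that follow are fragments per 1000000 fragments of the same nuclei (FPM), over gene body plus 2 kb, and the classes were themselves clustered on these fragments, so the order is a description. Nr3c2, Zbtb16, Foxo3, Fbxo32 and Trim63, 5 of the 10 members, had their highest level in cardiomyocyte-like nuclei. Within 1 kb of start sites that count was 1, so most of this pattern lay in the gene bodies. The share of all genes with their highest level in this class was not counted. Cardiomyocyte-like nuclei also had the smallest part of their fragments within 1 kb of any start site. It was 20.9% under sunitinib and 22.7% under vehicle, against at least 25.3% in every other class and library. The part of this in the members' order was not tested.

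**Figure D1:**
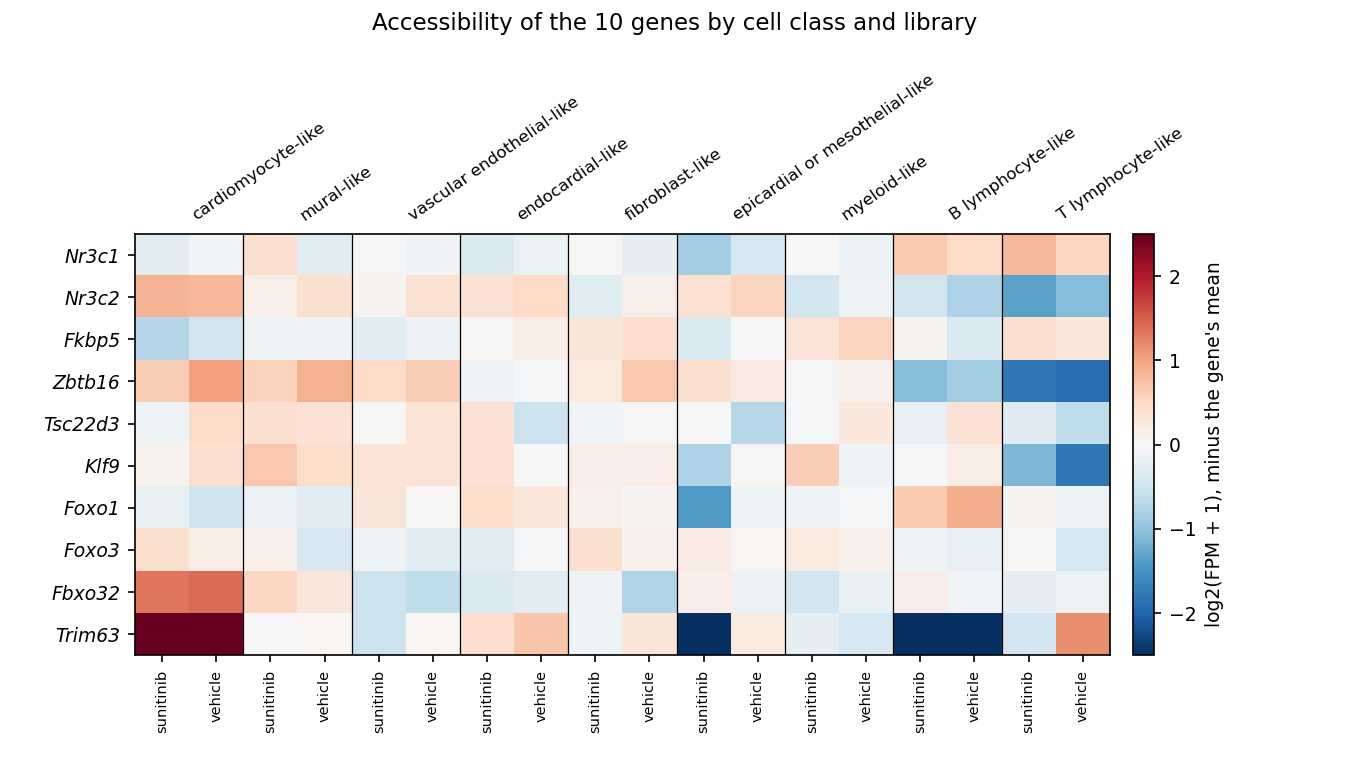
Heat map of the 10 genes (rows) in 9 cell classes (pairs of columns, sunitinib left and vehicle right). Colour is log2(FPM + 1) over gene body plus 2 kb minus the gene's mean over the 18 columns, clipped at 2.5 in either direction. Trim63 and Fbxo32 are red in cardiomyocyte-like nuclei, and Zbtb16 and Nr3c2 are blue in T lymphocyte-like nuclei.

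Trim63 had the sharpest restriction. Its level was 60.8 FPM in sunitinib and 88.9 in vehicle cardiomyocyte-like nuclei. In each of the other 8 classes it was at most 13.6 FPM in either library. Both libraries together gave 121 fragments in cardiomyocyte-like nuclei, 14.6-fold the level of the other classes. Within 500 bp of the RefSeq start site, the stretch that contains both motifs printed above, there were 10 fragments in sunitinib and 12 in vehicle cardiomyocyte-like nuclei. Vascular endothelial-like nuclei, with several times the depth, gave 1 under sunitinib and 4 under vehicle, and T lymphocyte-like nuclei gave 0 in both libraries.

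Fbxo32, which encodes the F-box protein atrogin-1 of a muscle ubiquitin ligase, was also most open in cardiomyocyte-like nuclei, with 152 FPM under sunitinib and 160.0 under vehicle. The next class was mural-like nuclei (pericytes and smooth muscle), with 86.4 under sunitinib and 72.6 under vehicle. Near its start site, however, Fbxo32 was as open in cardiomyocyte-like nuclei as elsewhere, with a log2 ratio over the other classes of -0.015 within 1 kb against 1.70 over the gene body. The difference lay at intronic windows instead. The 500 bp window with most cut sites, chr15:58204079-58204578, 10.6 kb into the gene, had 14.5 cut sites (fragment ends) per 1000000 cut sites of the class in cardiomyocyte-like nuclei, 10.8 in mural-like, 4.75 in fibroblast-like and 0.80 in vascular endothelial-like nuclei. The window of rank 3, chr15:58194179-58194678, 20.5 kb into the gene and singled out after its values were seen, had 13.01 cut sites per 1000000 in cardiomyocyte-like nuclei and at most 0.82 in any other class. Per kilobase counted, the levels of both ligase genes in cardiomyocyte-like nuclei were alike under sunitinib, 3.68 FPM per kb for Trim63 and 3.70 for Fbxo32, while under vehicle they were 5.38 and 3.90.

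**Figure D2:**
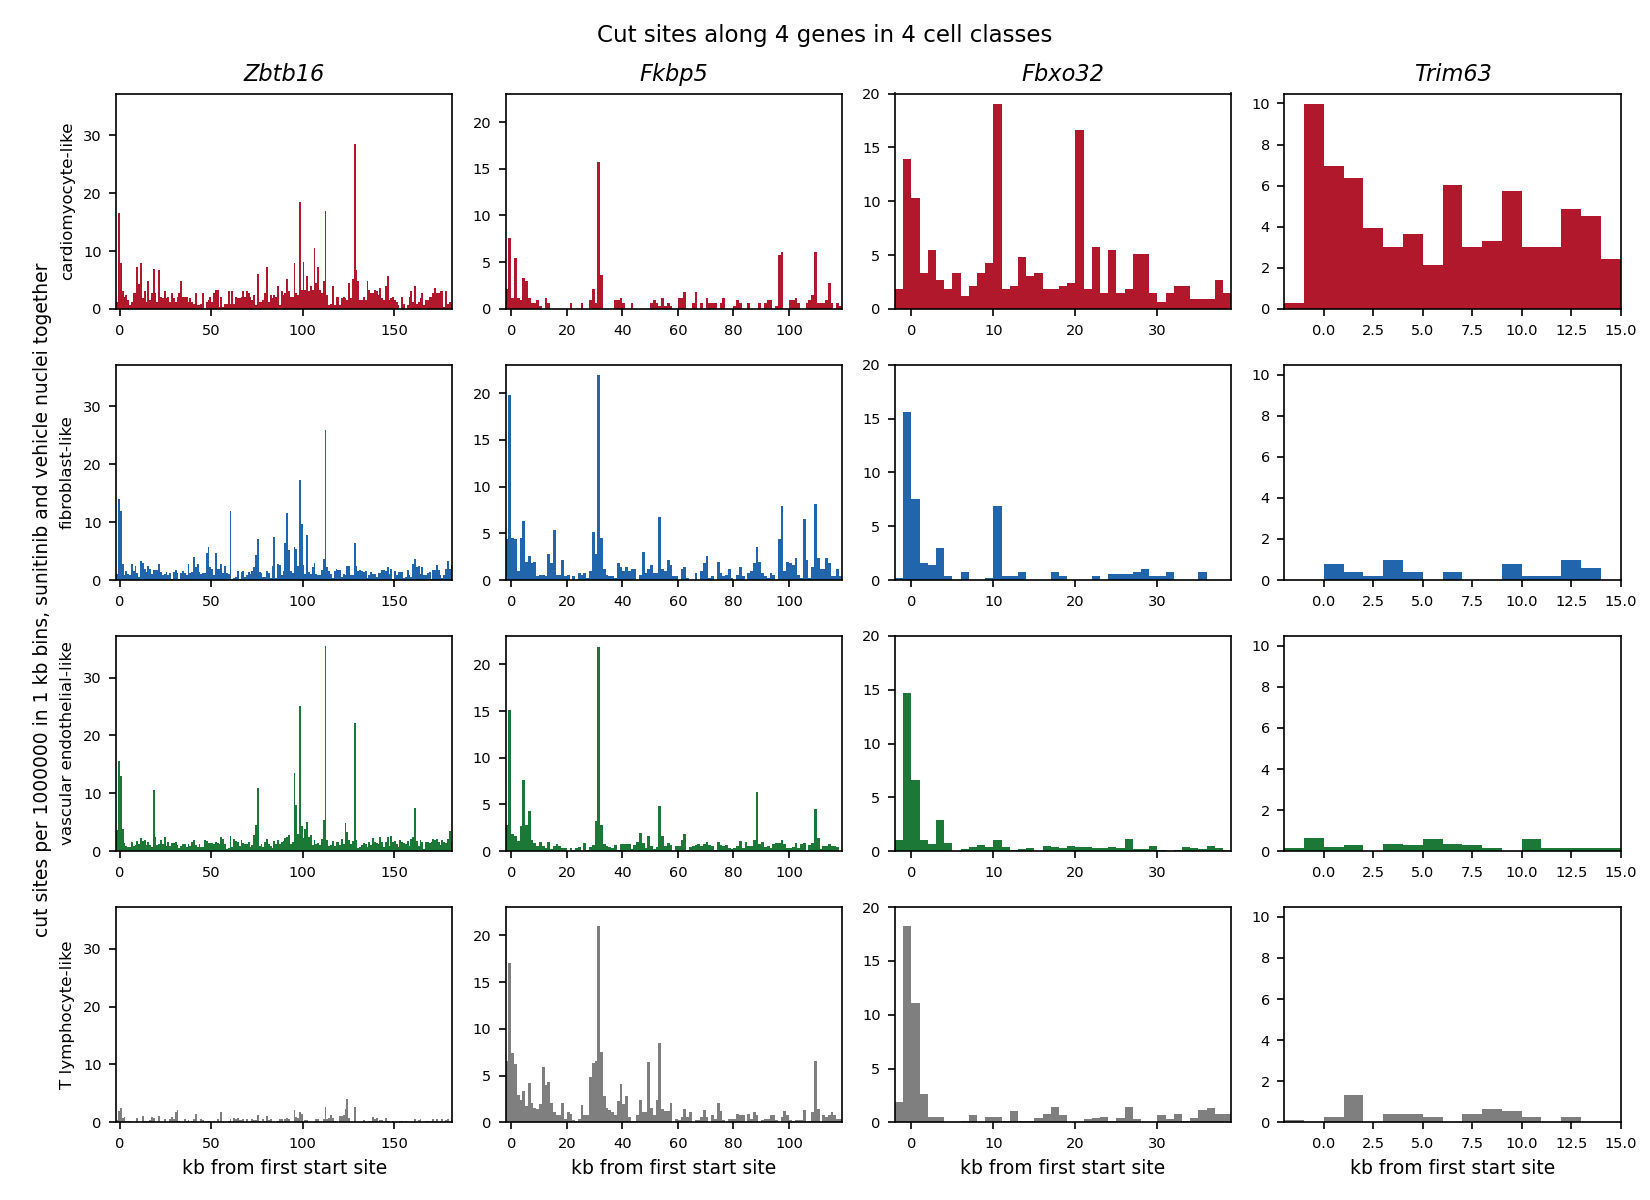
Cut sites per 1000000 in 1 kb bins along Zbtb16, Fkbp5, Fbxo32 and Trim63 (columns), by distance from the first annotated start site in kb, in 4 cell classes (rows), with sunitinib and vehicle nuclei together. Fbxo32 has bins of 19.1 and 16.6 at 10 and 20 kb in cardiomyocyte-like nuclei, and Trim63 reaches 9.99 in that class and at most 1.32 in the other 3.

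The mineralocorticoid receptor gene Nr3c2 and the glucocorticoid receptor gene Nr3c1 were ordered nearly in reverse. Nr3c2, whose product binds aldosterone and, in cardiomyocytes, mainly glucocorticoids, was highest in cardiomyocyte-like nuclei, at 238 FPM under sunitinib and 235 under vehicle, and lowest in T lymphocyte-like nuclei, at 51.4 under sunitinib and 62.0 under vehicle. Nr3c1 was highest in T lymphocyte-like nuclei, at 245 under sunitinib and 203 under vehicle, followed by B lymphocyte-like nuclei at 219 under sunitinib and 195 under vehicle. The ranges of those 2 classes over the libraries overlapped. Cardiomyocyte-like nuclei had 115 FPM for Nr3c1 under sunitinib and 134 under vehicle, which overlapped the ranges of fibroblast-like, myeloid-like, mural-like, endocardial-like and vascular endothelial-like nuclei. Over the 18 combinations of class and library, log2 levels of both receptor genes had a Pearson r of -0.78. The points share 2 libraries and differ in depth, so this describes them and no more.

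Zbtb16, which encodes the zinc-finger repressor PLZF and is among the genes most strongly induced by glucocorticoids in many human cell types, followed Nr3c2, with an r of 0.86 over the same 18 points. It was highest in cardiomyocyte-like nuclei, with 471 FPM under sunitinib and 629 under vehicle, closely followed by mural-like nuclei, with 456 under sunitinib and 571 under vehicle, and these ranges overlapped. T lymphocyte-like nuclei had 87.9 under sunitinib and 81.4 under vehicle. Its window with most cut sites, chr9:48723497-48723996, lay in an intron 112 kb from the nearest start site. It had 26.7 cut sites per 1000000 in mural-like, 26.6 in vascular endothelial-like, 21.6 in fibroblast-like, 13.3 in cardiomyocyte-like and 2.51 in T lymphocyte-like nuclei. The most open intronic stretch of Zbtb16 was thus more open in vascular and stromal classes than in cardiomyocyte-like nuclei, in which the whole gene body was highest.

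Fkbp5, which encodes a co-chaperone that lowers the hormone affinity of the glucocorticoid receptor and is induced by it, had the opposite place. It was lowest in cardiomyocyte-like nuclei, with 103 FPM under sunitinib and 126 under vehicle, and highest in myeloid-like nuclei, with 219 under sunitinib and 254 under vehicle. T lymphocyte-like nuclei (227 under sunitinib and 209 under vehicle) and fibroblast-like nuclei (215 under sunitinib and 231 under vehicle) overlapped the myeloid-like range. A distal window at chr17:28407494-28407993, 34.0 kb past the nearest start site, had 25.0 cut sites per 1000000 in B lymphocyte-like nuclei and at most 7.52 in any other class.

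Tsc22d3, which encodes the anti-inflammatory leucine zipper protein GILZ, and Klf9, a Krüppel-like factor induced by glucocorticoids, were both highest in mural-like nuclei. Tsc22d3 had 88.3 FPM under sunitinib and 86.0 under vehicle there, within the range of cardiomyocyte-like nuclei, which had 61.9 under sunitinib and 91.6 under vehicle. Klf9 had 132 under sunitinib and 113 under vehicle in mural-like nuclei, overlapped by myeloid-like nuclei with 126 under sunitinib and 77.7 under vehicle, and was lowest in T lymphocyte-like nuclei, with 37.1 under sunitinib and 23.2 under vehicle.

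The FOXO factor genes also differed from each other. Foxo1, a regulator of vascular growth and of lymphocyte development and homing, was highest in B lymphocyte-like nuclei, with 166 FPM under sunitinib and 199 under vehicle. Those nuclei differed between libraries in their own markers, all 8 of which were lower under sunitinib (summed log2 -0.89, -1.16 to -0.61). The sum was 508 FPM under sunitinib, below that of mural-like (633) and endocardial-like nuclei (586), and 940 under vehicle. Their summed T lymphocyte markers were at 889 under sunitinib and 533 under vehicle (0.73, 0.45 to 1.04), with 9 of 10 higher. The name is thus weak under sunitinib, also for the Nr3c1 and Fkbp5 values of these nuclei given above. Foxo1 was next highest in endocardial-like nuclei, with 142 under sunitinib and 129 under vehicle, a range below that of the B lymphocyte-like nuclei. Foxo3, which drives atrophy and autophagy genes in muscle, was spread evenly, between 136 and 242 FPM in all 18 combinations. Its highest class by both libraries together, cardiomyocyte-like nuclei, had 242 under sunitinib and 209 under vehicle, against 241 under sunitinib and 199 under vehicle in fibroblast-like nuclei, so the first places could not be separated.

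Genes with the most similar profile over the 18 points included Bag3 (r = 0.94), Fgfr2 (0.92) and Dst (0.92) for Nr3c2, and Mtus1 (0.94), Nbea (0.93) and Rxra (0.92) for Zbtb16. For Fbxo32 they were Lpin1 (0.88), Actn2 (0.86) and Cacnb2 (0.86). They were picked as the top 3 of 10314 genes for each member, so high values are built in.

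The first comparison of treatments, sunitinib over vehicle, asks whether chromatin of these genes differed within the same class of nuclei. In cardiomyocyte-like nuclei 7 of the 10 members were less open under sunitinib and 3 were more open. The 4 glucocorticoid-induced genes were among the lower ones, and both FOXO factor genes among the higher ones. Over 9 alternative ways of counting, Klf9 kept its sign in 7, and Fkbp5 and Foxo3 in 8. Zbtb16, Tsc22d3 and Foxo1 kept theirs in all 9. The lowest ratios were at Tsc22d3, Trim63 and Zbtb16, and the highest at Foxo1. None of the 10, all of which had at least 100 fragments over both libraries, passed 1.5-fold, a size past which the text calls a ratio and that 4.24% of the 3091 genes measured in this class reached in either direction. The median log2 ratio of the members was -0.25, beside -0.05 for all measured genes, of which 58.1% were lower. Fragments within 1 kb of any start site were 20.9% of all under sunitinib and 22.7% under vehicle, and with these as the denominator every log2 ratio in this class rises by 0.12, so that 6 members are lower and 4 higher, Fbxo32 having changed sides.

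For Zbtb16 there were 434 fragments in sunitinib cardiomyocyte-like nuclei (471 FPM) and 460 in vehicle nuclei (629 FPM), and the log2 ratio was -0.42 (95% interval -0.61 to -0.22). For Tsc22d3 there were 57 fragments under sunitinib (61.9 FPM) and 67 under vehicle (91.6 FPM), and the log2 ratio was -0.56 (-1.10 to -0.03). For Trim63 there were 56 under sunitinib (60.8 FPM) and 65 under vehicle (88.9 FPM), and the log2 ratio was -0.55 (-1.09 to -0.01). The intervals of all 3 lay below 0. With the denominator near start sites that still held for Zbtb16 (-0.30, -0.49 to -0.11), while those of Tsc22d3 (-0.45, -0.99 to 0.08) and Trim63 (-0.43, -0.97 to 0.11) included 0. Single nuclei weighed on the smaller counts: 1 vehicle nucleus held 8 of the Trim63 fragments (12.3%) and another 6 of the Tsc22d3 fragments (8.96%). Tsc22d3 lies on the X chromosome, whose 948 genes together had a log2 ratio of 0.03 in these nuclei.

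Klf9 had 87.9 FPM under sunitinib and 109 under vehicle (log2 -0.32, -0.78 to 0.15), and Fkbp5 had 103 under sunitinib and 126 under vehicle (-0.29, -0.72 to 0.14). Nr3c1 had 115 under sunitinib and 134 under vehicle (-0.22, -0.63 to 0.19). These intervals all include 0. Within 1 kb of the start sites the Nr3c1 difference was larger, with 45 fragments under sunitinib and 56 under vehicle and a log2 ratio of -0.65 (-1.25 to -0.06). Counted there, 28.0% of the measured genes were past 1.5-fold in either direction. Nr3c2 was level, with a log2 ratio of 0.01 (-0.28 to 0.31), and so was Fbxo32, with -0.08 (-0.44 to 0.29).

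Foxo1 had 85 fragments under sunitinib (92.3 FPM) and 54 under vehicle (73.8 FPM), and the log2 ratio was 0.32 (-0.19 to 0.84). Foxo3 had 223 under sunitinib (242 FPM) and 153 under vehicle (209 FPM), and the log2 ratio was 0.21 (-0.09 to 0.52). Both intervals include 0. The summed cardiomyocyte markers had a log2 ratio of -0.04 in the same nuclei, with 5 of 10 higher and 5 lower. Of the 11 marker lists of other cell types, 2 had an interval off 0 in these nuclei. Summed epicardial or mesothelial markers were at 114 FPM under sunitinib and 72.5 under vehicle (log2 0.65, 0.16 to 1.16), with 6 of 8 higher and 1 marker at 0 under vehicle. Summed B lymphocyte markers were at 223 under sunitinib and 168 under vehicle (0.40, 0.07 to 0.74), with 6 of 8 higher and no marker at 0. Summed T lymphocyte markers were at 216 under sunitinib and 193 under vehicle (0.16, -0.15 to 0.49), with 6 of 10 higher. The part of such signal of other cells in the members' ratios was not tested.

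**Figure D3:**
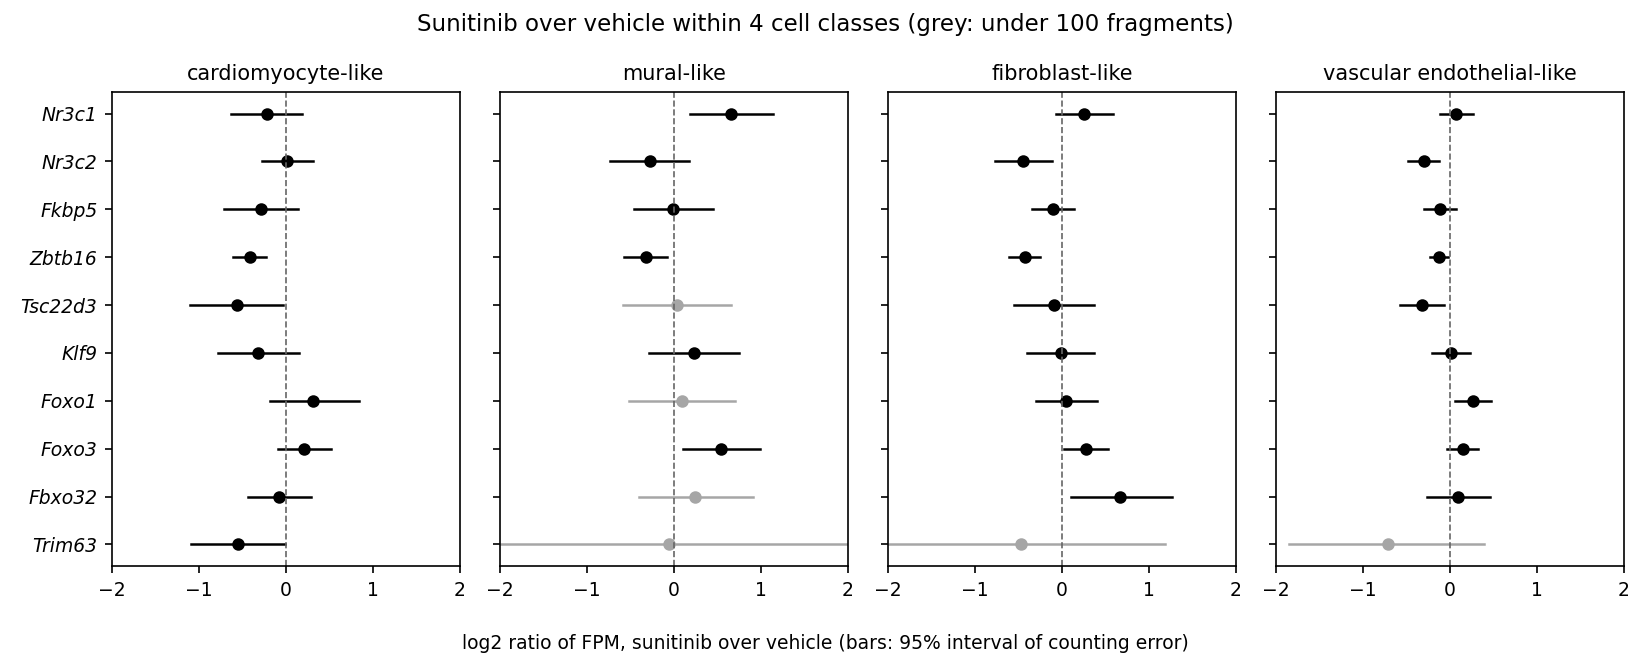
Log2 ratio of FPM, sunitinib over vehicle, for the 10 genes in 4 cell classes. Points are ratios over gene body plus 2 kb, bars are 95% intervals of counting error, and grey marks genes with under 100 fragments over both libraries. In cardiomyocyte-like nuclei the intervals of Zbtb16, Tsc22d3 and Trim63 lie below 0, the last 2 of them only with all fragments as the denominator.

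The lower accessibility of Zbtb16 under sunitinib also appeared in classes other than cardiomyocyte-like nuclei. In fibroblast-like nuclei there were 503 fragments under sunitinib (362 FPM) and 556 under vehicle (488 FPM), and the log2 ratio was -0.43 (-0.61 to -0.25). In mural-like nuclei there were 248 under sunitinib (456 FPM) and 299 under vehicle (571 FPM), and the log2 ratio was -0.32 (-0.57 to -0.08). Vascular endothelial-like nuclei, the deepest class for this gene, had 1711 under sunitinib (431 FPM) and 1374 under vehicle (469 FPM), a smaller ratio of -0.12 (-0.22 to -0.02). Zbtb16 was lower in 7 of 9 classes, and slightly higher in T lymphocyte-like nuclei (0.10, -0.36 to 0.61) and epicardial or mesothelial-like nuclei (0.17, -0.39 to 0.69). All these comparisons rest on the same pair of libraries, so the classes do not repeat one another. The share of all genes with 1 sign in as many classes was not counted, for Zbtb16 or for the members below.

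T lymphocyte markers were higher under sunitinib in the same non-lymphoid classes. In fibroblast-like nuclei their sum was 310.5 FPM under sunitinib and 165 under vehicle (log2 0.91, 0.66 to 1.17), with 10 of 10 markers higher. In mural-like nuclei it was 228 under sunitinib and 139 under vehicle (0.70, 0.28 to 1.15), with 7 of 10 higher, and 1 marker was at 0 under sunitinib and 3 under vehicle. In vascular endothelial-like nuclei it was 179 under sunitinib and 140 under vehicle (0.35, 0.17 to 0.53), with 10 of 10 higher. Zbtb16 and Nr3c2 were least open and Nr3c1 most open in T lymphocyte-like nuclei, where the marker sum was 1385 under sunitinib and 1172 under vehicle. Klf9 was also least open there, yet its ratios were 0.23 in mural-like, -0.01 in fibroblast-like and 0.01 in vascular endothelial-like nuclei. Fkbp5 was next highest there after myeloid-like nuclei, yet its ratios in the same order were -0.005, -0.10 and -0.11. The fibroblast-like nuclei also pooled a cluster of 244 sunitinib and 361 vehicle nuclei with a smaller one of 65 and 20, for which T lymphocyte markers ranked next after fibroblast markers. Without the smaller cluster, the marker sum was 188 under sunitinib and 137 under vehicle (0.46, 0.15 to 0.78), and the Zbtb16 ratio was -0.33 (-0.52 to -0.15). The part of T lymphocyte signal in the members' ratios of these classes was not tested.

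Near the Zbtb16 start sites the classes had ratios of either sign, and all 9 intervals included 0. Within 1 kb, cardiomyocyte-like nuclei had 22 fragments under sunitinib and 20 under vehicle (log2 -0.20, -1.14 to 0.75), fibroblast-like nuclei had 43 under sunitinib and 29 under vehicle (0.28, -0.43 to 1.02), and vascular endothelial-like nuclei had 135 under sunitinib and 84 under vehicle (0.24, -0.16 to 0.66). In 20 kb bins from the first start site, the cardiomyocyte-like ratio was 0.13 (-0.36 to 0.64) in the first bin and -1.19 (-2.0 to -0.44) and -1.23 (-2.02 to -0.49) at 140 to 160 and 160 to 180 kb. In fibroblast-like nuclei the lowest bin was at 40 to 60 kb (-0.94, -1.51 to -0.38), which was also the lowest bin in vascular endothelial-like nuclei (-0.70, -1.14 to -0.27). These bins were picked as the lowest after their values were seen, and differences between classes by bin were not tested.

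The most open windows of Zbtb16 behaved unequally in cardiomyocyte-like nuclei. The window 112 kb from the start had 14.7 cut sites per 1000000 under sunitinib and 11.6 under vehicle. The one of rank 3, chr9:48707297-48707796, 128 kb from the start, had 11.9 under sunitinib and 25.3 under vehicle, from 22 and 37 cut sites (log2 -1.07, -1.91 to -0.28). This window, singled out after its values were seen, was also lower under sunitinib in mural-like, fibroblast-like, endocardial-like, epicardial or mesothelial-like, myeloid-like and vascular endothelial-like nuclei, although each of those intervals included 0. Both ends of 1 fragment can fall in a window, so cut-site intervals are too narrow. At Fbxo32 the cardiomyocyte window 20.5 kb into the gene went the other way, with 17.4 cut sites per 1000000 under sunitinib and 7.52 under vehicle, from 32 and 11 cut sites (1.17, 0.18 to 2.34), while the one at 10.6 kb had 11.9 under sunitinib and 17.8 under vehicle (-0.57, -1.46 to 0.30).

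Nr3c2 was lower under sunitinib in 7 of 9 classes, cardiomyocyte-like and B lymphocyte-like nuclei being the exceptions. Of the 7 classes in which it had at least 100 fragments, it was lower in 6. In vascular endothelial-like nuclei there were 552 fragments under sunitinib (139 FPM) and 502 under vehicle (171 FPM), and the log2 ratio was -0.30 (-0.48 to -0.12). In fibroblast-like nuclei there were 148 under sunitinib (107 FPM) and 165 under vehicle (145 FPM), and the log2 ratio was -0.44 (-0.77 to -0.11). Without the smaller cluster it was -0.24 (-0.60 to 0.11). The ratios in mural-like (-0.28), myeloid-like (-0.34) and T lymphocyte-like nuclei (-0.29) had intervals that included 0. The other receptor gene, Nr3c1, was higher in 6 of 9 classes, and in 6 of the 8 in which it had at least 100 fragments. In mural-like nuclei it had 100 fragments under sunitinib (184 FPM) and 61 under vehicle (117 FPM), and the log2 ratio was 0.65 (0.18 to 1.14). That was the 1 of 6 measured members past 1.5-fold in mural-like nuclei, where 2.8% of 1607 genes were. Leaving out the deepest 5% of nuclei, it was 0.44 (-0.09 to 0.98) and at the finer clustering 0.52 (0.06 to 1.00), both under that size. T lymphocyte markers were higher in the same nuclei (0.70), as given above.

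Foxo3 was higher under sunitinib in 8 of 9 classes, with endocardial-like nuclei (-0.23, -0.70 to 0.21) the exception. Of the 8 classes in which it had at least 100 fragments, it was higher in 7. The largest of its measured ratios was in mural-like nuclei, with 109 fragments under sunitinib (200.4 FPM) and 72 under vehicle (138 FPM), and the log2 ratio was 0.54 (0.10 to 0.99). It was 0.34 (-0.16 to 0.85) with the deepest 5% of nuclei left out and -0.073 (-0.94 to 0.78) after thinning to 1000 fragments per nucleus. T lymphocyte-like nuclei had 611 under sunitinib (187 FPM) and 70 under vehicle (136 FPM), and the log2 ratio was 0.46 (0.11 to 0.84). Fibroblast-like nuclei had 335 under sunitinib (241 FPM) and 227 under vehicle (199 FPM), and the log2 ratio was 0.28 (0.03 to 0.53), and within 1 kb of start sites 67 under sunitinib and 28 under vehicle (0.96, 0.32 to 1.66), where 17.1% of measured genes were past 1.5-fold. Vascular endothelial-like nuclei differed by 0.15 (-0.03 to 0.32), less than in those classes. Foxo1 was higher in 6 of 9 classes, and in 5 of the 6 in which it had at least 100 fragments. Its interval was narrowest in vascular endothelial-like nuclei, where 513 fragments under sunitinib (129 FPM) and 316 under vehicle (108 FPM) gave 0.26 (0.06 to 0.47). With fragments near start sites as the denominator, every log2 ratio changes by -0.045 in fibroblast-like and by -0.078 in vascular endothelial-like nuclei. The gene-body interval of Foxo3 in fibroblast-like nuclei and this interval of Foxo1 then include 0.

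**Figure D4:**
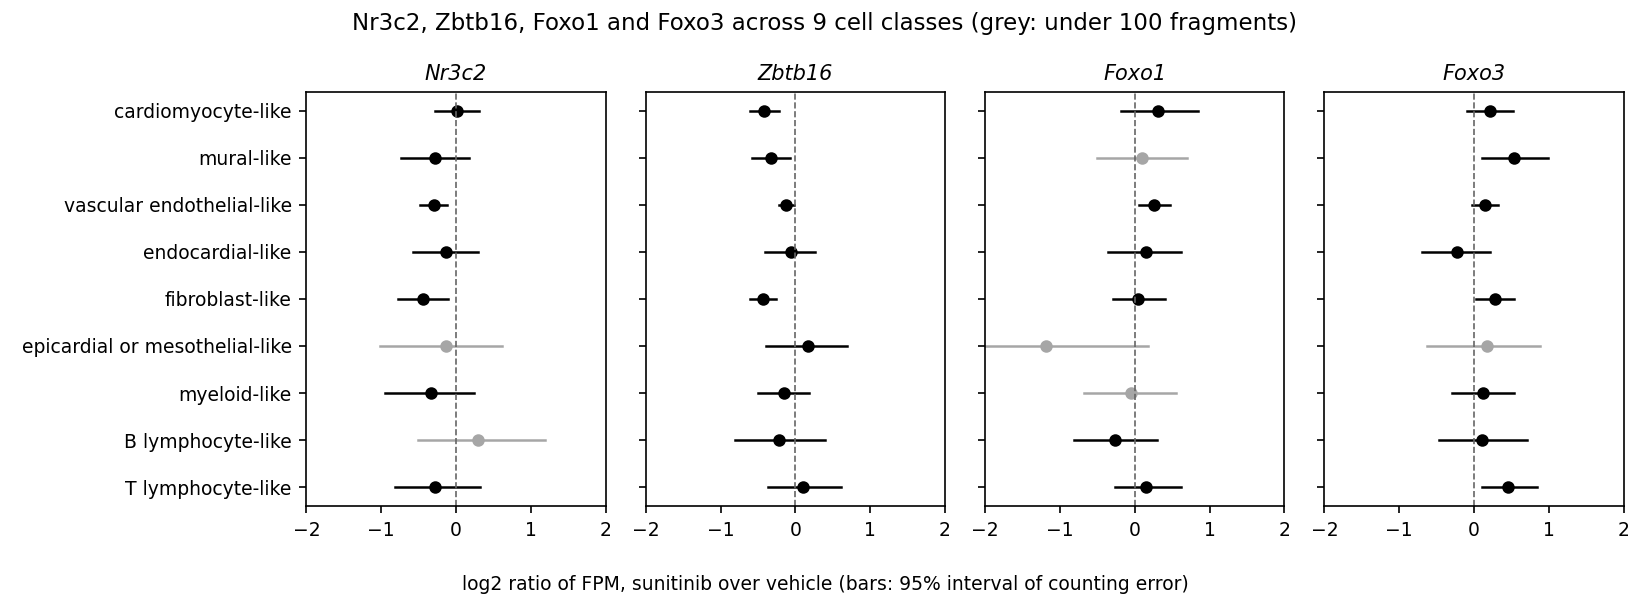
Log2 ratio of FPM, sunitinib over vehicle, for Nr3c2, Zbtb16, Foxo1 and Foxo3 in each of 9 cell classes. Bars are 95% intervals of counting error, and grey marks under 100 fragments over both libraries. Foxo3 lies right of 0 in 8 classes, and Zbtb16 and Nr3c2 lie left of 0 in 7 classes each.

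The other members were past 1.5-fold in few classes. In fibroblast-like nuclei Fbxo32 had 78 fragments under sunitinib (56.2 FPM) and 40 under vehicle (35.1 FPM), and the log2 ratio was 0.67 (0.11 to 1.27). It was the 1 of 9 measured members past 1.5-fold there, as were 3.16% of 6111 genes, but with only fragments shorter than nucleosome length the ratio was 0.077 (-0.91 to 1.10). In T lymphocyte-like nuclei it was Klf9, with 121 fragments under sunitinib (37.1 FPM) and 12 under vehicle (23.2 FPM), and the log2 ratio was 0.62 (-0.18 to 1.67). It was 1 of 9 measured members, and 7.4% of 10251 genes passed that size. The Klf9 ratio was 0.38 (-0.46 to 1.49) with the deepest 5% of nuclei left out, 0.18 (-0.97 to 1.80) after thinning and 0.077 (-0.99 to 1.55) with the short fragments only. In vascular endothelial-like nuclei none of 9 measured members passed it, whereas 1.17% of 12833 genes did, and Tsc22d3 was lowest, with 68.1 FPM under sunitinib and 84.9 under vehicle (-0.32, -0.57 to -0.07). None did in endocardial-like (7 measured, 5.89% of genes), myeloid-like (5 measured, 3.98%), B lymphocyte-like (5 measured, 8% of genes) or epicardial or mesothelial-like nuclei (1 measured, 11.6%). Trim63 had at least 100 fragments in no class but cardiomyocyte-like nuclei.

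Neighbouring genes of the pathways were counted from lists of chaperones and coregulators, further glucocorticoid-induced genes, further FOXO genes, genes from insulin receptor to AKT, and further atrophy genes. In cardiomyocyte-like nuclei 58.1% of all measured genes were lower under sunitinib (median log2 -0.05). With fragments near start sites as the denominator, every ratio and median in this class rises by 0.12. With all fragments as the denominator, 11 of 14 measured genes between insulin receptor and AKT were lower (median log2 -0.18), none past 1.5-fold. The largest in size were Pik3cb (-0.45), a catalytic subunit of PI3K, and Irs2 (-0.43), an adaptor of the insulin receptor. Of the other glucocorticoid-induced genes, 4 of 5 measured were lower (median -0.13), led by the clock gene Per1, with 84.7 FPM under sunitinib and 118 under vehicle (-0.47, -0.93 to -0.01). The chaperones and coregulators had 6 of 8 lower (median -0.13), with the histone acetyltransferase gene Ep300 at -0.55. Of the atrophy genes, 4 of 7 were lower (median -0.01), and Cul3, a ubiquitin ligase scaffold, was higher at 0.55 (0.02 to 1.10). Only 3 of 20 other FOXO genes were measured there.

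In vascular endothelial-like nuclei 57.8% of all measured genes were higher, and so were 17 of 20 other FOXO family and target genes (median 0.10, beside 0.04 for all genes), 12 of 15 glucocorticoid-induced genes, 13 of 18 genes from insulin receptor to AKT and 10 of 14 chaperones and coregulators. These counts hold with all fragments as the denominator. With fragments near start sites as the denominator, every ratio and median in this class changes by -0.078, and the median of all genes is -0.04. The FOXO genes included the autophagy gene Gabarapl1 at 0.57 (0.08 to 1.09). Pdk4, a brake on glucose oxidation induced by glucocorticoids and by FOXO, had 0.58 (0.11 to 1.09) there. In fibroblast-like nuclei 53.9% of all measured genes and 8 of 10 measured FOXO genes were higher (median 0.16, beside 0.02), and Pik3ip1, an inhibitor of PI3K, had 82 fragments under sunitinib and 33 under vehicle (1.02, 0.43 to 1.66). T lymphocyte markers were higher in the same nuclei (0.91), as given above, and the part of such signal in these list ratios was not tested. Irs2 was lower in fibroblast-like nuclei (-0.63, -1.06 to -0.21). With the denominator near start sites, every ratio and median in fibroblast-like nuclei changes by -0.045, and the median of all genes is -0.02. In mural-like nuclei Per1 was lower, with 54 fragments under sunitinib and 81 under vehicle (-0.64, -1.16 to -0.13).

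Over whole libraries, without cell classes, Nr3c1 was at the upper end of the members' range, and Nr3c2, Zbtb16 and Trim63 were at the lower end. Nr3c1 had 142 FPM under sunitinib and 105 under vehicle (log2 0.43, 0.35 to 0.51), the highest of the 10, and it was also the member most open in T lymphocyte-like nuclei, whose share of nuclei was 34.7% under sunitinib and 8.82% under vehicle. Nr3c2 (122 under sunitinib and 153 under vehicle, -0.32) and Zbtb16 (271 under sunitinib and 333 under vehicle, -0.29) were the lowest, and both were least open in T lymphocyte-like nuclei. Trim63 was level with Zbtb16 (13.8 under sunitinib and 16.9 under vehicle, -0.29, -0.52 to -0.06), but in T lymphocyte-like nuclei it ranked 5 of the 9 classes. Klf9, also least open in T lymphocyte-like nuclei, had -0.03 (-0.14 to 0.08). In such sums, more nuclei of a class and more open chromatin per nucleus cannot be told apart. Among all called nuclei the Nr3c1 ratio was 0.31, that of Nr3c2 -0.41 and that of Zbtb16 -0.46. Among called nuclei outside the lymphocyte-like classes the Nr3c1 ratio was 0.08, that of Nr3c2 -0.21 and that of Zbtb16 -0.22. Over whole libraries no member passed 1.5-fold, whereas 3.36% of 17987 genes did. Among called nuclei alone Trim63 was past it, with 9.44 FPM under sunitinib and 14.8 under vehicle (-0.65, -1.02 to -0.27), where 3.57% of 16170 genes were.

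The second comparison, sunitinib plus Yoda1 over sunitinib, asks what the channel activator added to the drug, and it could be made only over whole libraries. Zbtb16 had 126 fragments under sunitinib plus Yoda1 (488 FPM), against 6413 under sunitinib (271 FPM) and 6213 under vehicle (333 FPM). The log2 ratio was 0.85 over sunitinib (0.58 to 1.10) and 0.56 over vehicle (0.29 to 0.81). Within 1 kb of the start sites there was 1 fragment under sunitinib plus Yoda1, against 462 under sunitinib and 393 under vehicle, which put the ratio over sunitinib (log2) at -1.75 (-7.64 to 0.15).

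Nr3c2 had 48 fragments under sunitinib plus Yoda1 (186 FPM), against 122 FPM under sunitinib and 153 under vehicle, which put the ratio over sunitinib (log2) at 0.62 (0.16 to 1.01). Foxo3 had 64 (248 FPM), against 170 FPM under sunitinib and 141 under vehicle, and ratios of 0.56 (0.17 to 0.90) over sunitinib and 0.83 (0.44 to 1.18) over vehicle. Nr3c1 had 51 (198 FPM), with ratios of 0.49 (0.05 to 0.88) over sunitinib and 0.93 (0.48 to 1.31) over vehicle. Within 1 kb of start sites Foxo3 had 7 fragments and turned sign, at -0.38 (-1.79 to 0.57) over sunitinib and -0.08 (-1.50 to 0.87) over vehicle. Counted there over sunitinib, Nr3c2 had 0.24 (-0.97 to 1.10) from 9 fragments and Nr3c1 had 0.64 (0.04 to 1.13) from 30. Trim63 had 8 (31.0 FPM), with a ratio over sunitinib of 1.25 whose interval was wide (-0.06 to 2.16). Fkbp5 was the lowest, with 28 (109 FPM), against 157 FPM under sunitinib and 146.5 under vehicle (-0.50 over sunitinib, -1.12 to 0.0035).

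Of the 10 members, 3 were at least 1.5-fold higher over sunitinib (Nr3c2, Zbtb16 and Trim63) and 0 lower. Over all 16786 genes measured, 38.4% passed that size in either direction and 14.1% were at least that much higher, so such a size was common in this pair of libraries. The median of the members was 0.45, beside -0.07 for all genes. Over vehicle, 3 members were past it and higher (Nr3c1, Foxo3 and Trim63), where 15.2% of 16479 genes were that much higher and 35.6% were past it in either direction. The sunitinib plus Yoda1 values enter both comparisons and so do not support each other. The cell make-up of that library is not known from 12 nuclei, and its preparation, its depth and the treatment cannot be told apart.

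**Figure D5:**
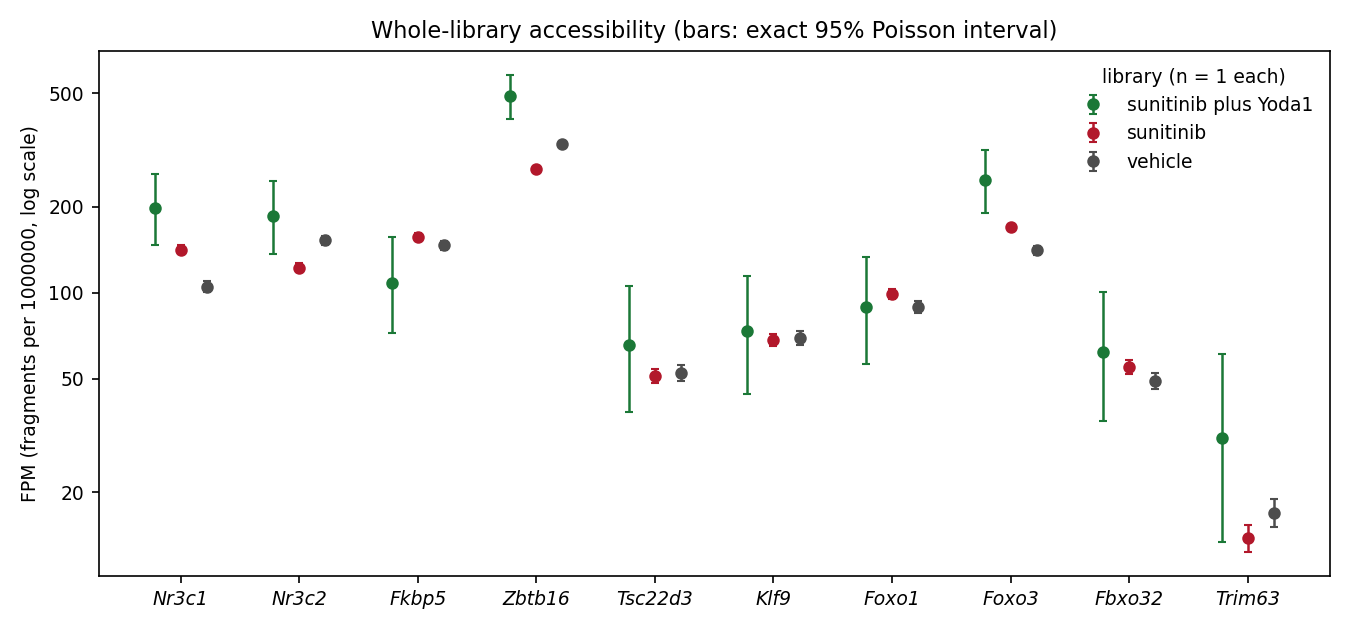
Whole-library accessibility of the 10 genes in FPM (fragments per 1000000, log scale) over gene body plus 2 kb, in the sunitinib plus Yoda1, sunitinib and vehicle libraries (n = 1 each). Bars are exact 95% Poisson intervals. Zbtb16 is at 488 under sunitinib plus Yoda1, 271 under sunitinib and 333 under vehicle, and the bars of the sunitinib plus Yoda1 library are the widest.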

How the data were processed

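Accessibility was measured in 3 single-nucleus multiome libraries of mouse heart, 1 per group. The deposited fragments came from cellranger-arc with the mm10 build, per the file headers. Its version was 2.0.2 for sunitinib plus Yoda1, and 2.0.0 for sunitinib and for vehicle, so it differs together with the group. Each value is a deposited count of read pairs behind 1 unique fragment of 1 barcode, with no normalization. Cell Ranger and Signac are named in the submitters' processing notes. The RNA arm was not analysed here.

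A nucleus needed 1000 fragments, a start-site enrichment of 4 (ends near start sites over flanks 1900 to 2000 bp away) and fewer than 4 nucleosome-length fragments per shorter one. No doublet caller was run. Nuclei were clustered on 60000 tiles of 5 kb (30 components, 20 neighbours, Leiden resolution 0.8; scikit-learn 1.9.0, igraph 0.11.9, leidenalg 0.10.2). Clusters took the name of 1 of 12 marker lists where at least 3 markers were 2-fold higher than in other nuclei. A cluster of 45 nuclei had no such marker and stayed unnamed. Another of 339 nuclei with low enrichment was left unnamed by a rule added after the data were seen, since none of the 7 markers of its best list was among its top 10 genes and only 3 were 2-fold higher. Genes came from GENCODE vM21 (GRCm38, the assembly of mm10).

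Log2 ratios had 0.5 counts added per side and conditional exact 95% intervals (scipy 1.17.1). A measured gene had at least 100 fragments over both libraries. The computation was tested on simulated data. The alternatives covered the interval counted, nuclei kept, clustering, fragment length, depth, denominator and window width. The named genes were the 10 members, up to 3 measured genes of largest ratio per pathway list and class, and the 3 most similar genes per member. Members and lists were chosen with earlier results of these data known.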

Additional observations from a re-analysis of the deposited data

How the results depend on the processing

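No paired analysis was possible because each group has 1 library. Of the values recomputed, 590 of 668 for single members and 234 of 266 for medians and counts moved by less than the counting error (counts by less than 1.5 times). Counts past 1.5-fold are over the members measured in the main counting, and the share of the same genes past it is given for each alternative as a range over the 9 classes, under the same setting. Counting within 1 kb of start sites gave 3 members in B lymphocyte-like, 4 in T lymphocyte-like, 1 in cardiomyocyte-like, 1 in endocardial-like and 3 in mural-like nuclei, and 6 for sunitinib plus Yoda1 over sunitinib, where Zbtb16 reversed to -1.75 (genes 9.07% to 55.1%, and 53.3% for that last pair). No member had 100 fragments near start sites in B lymphocyte-like, mural-like, endocardial-like, myeloid-like or epicardial or mesothelial-like nuclei. In cardiomyocyte-like nuclei only Nr3c1 had as many. With at least 3000 fragments per nucleus there were 1 in B lymphocyte-like, 2 in cardiomyocyte-like and 2 in mural-like nuclei (genes 3.52% to 27.2%). Without the 5% of nuclei with most fragments there were 1 in cardiomyocyte-like, 0 in T lymphocyte-like and 0 in mural-like nuclei (genes 2.49% to 12.9%). Fragments shorter than nucleosome length gave 1 in B lymphocyte-like, 2 in T lymphocyte-like, 1 in cardiomyocyte-like, 0 in fibroblast-like, 2 in mural-like and 1 in myeloid-like nuclei (genes 7.36% to 27.2%). Thinning to 1000 fragments per nucleus gave 0 in T lymphocyte-like, 2 in cardiomyocyte-like, 1 in endocardial-like and 1 in epicardial or mesothelial-like nuclei (genes 10.7% to 36.1%). Keeping 1 fragment per position gave 1 in cardiomyocyte-like nuclei (genes 4.72%), and clustering at resolution 1.5 gave 0 in mural-like nuclei (genes 2.74%). The single epicardial or mesothelial-like member, Zbtb16, had -0.53 near start sites and 0.96 after thinning. Over whole libraries the members' median was -0.10 in called nuclei (1 member past 1.5-fold), -0.082 outside the lymphocyte-like classes and 0.20 near start sites. Members highest in cardiomyocyte-like nuclei were 1 near start sites and 3 after thinning, and Fbxo32 reversed to -0.015 near start sites. In fibroblast-like nuclei without their smaller cluster, an alternative chosen after seeing the data, no such count changed. With windows of 1000 bp, 7 of the 10 most accessible windows overlapped those of 500 bp. The causes were not tested. In cardiomyocyte-like nuclei Zbtb16 ranged from -0.64 to -0.20, Tsc22d3 from -0.98 to -0.16 and Trim63 from -1.35 to -0.40 over 9 alternatives. Ranges that included both signs there were those of Klf9 (-0.35 to 0.18), Fkbp5 (-0.66 to 0.15) and Foxo3 (-0.24 to 0.51), among others. Motifs in distal windows were not searched. Depth limits most member values per class, since many rest on under 100 fragments, and the sunitinib plus Yoda1 values rest on 8 to 126.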
